A study of Homo sapiens with 4 samples.

Results

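CD74, the MHC class II invariant chain, was expressed above 98.3% or more of protein-coding genes in MDA-MB-231 and LM2-4175 breast cancer cells. The 8 MHC class II genes of chromosome 6 were listed at or near 0 in both cell lines. Most other genes of their stretch of chromosome 6 were listed so too, so these values do not show that class II transcripts are absent. The 10 genes described here are CD74, the transactivator CIITA, and HLA-DRA, HLA-DRB1, HLA-DPA1, HLA-DPB1, HLA-DQA1, HLA-DQB1, HLA-DMA and HLA-DMB. They were taken by gene symbol from the 57815 genes of the expression table, and they had been chosen by a rule that had these same values in view, so their levels are a description and no test was made of them. RNA-Seq had been performed on untreated cultures of both lines in DMEM with serum, as 4 libraries, 2 for each line. The parental MDA-MB-231 line comes from a triple-negative breast cancer, and LM2-4175 is its derivative that readily forms lung metastases. The comparison asked how expression differed between the parental and the lung-metastatic cells.

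MHC class II molecules are pairs of an alpha and a beta chain that present peptides from the endosome to CD4+ T cells. CD74 binds the newly made pair in the endoplasmic reticulum, fills its groove and guides it to the endosome, where proteases trim CD74 and HLA-DM, the product of HLA-DMA and HLA-DMB, exchanges the remaining fragment for a peptide. These genes are constitutive in professional antigen-presenting cells and inducible by interferon-gamma in many other cells, through the coactivator CIITA, which docks on factors bound to the X and Y boxes of their promoters. CD74 is also a cell surface receptor for the cytokine MIF.

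The values were FPKM, read fragments normalised to gene length and library size, so levels of different genes can be compared per length. The table gave each gene 1 FPKM per cell line, with a lower and an upper bound, for the libraries together, so no spread between libraries, SD or p-value can be given. The bounds are the only error available, and the sources used here do not say whether they cover the spread between libraries. Nothing says that the libraries of a line came from separate cultures. Bulk RNA cannot tell fewer expressing cells from less RNA per cell. An exact 0 in such a table can be a failed estimate, so a gene at 0 is only said to be listed at 0. The deposited status of all 10 genes was OK in both lines.

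CD74 had an FPKM of 281 in MDA-MB-231, with bounds of 216 and 345, and of 220 in LM2-4175, with bounds of 169 and 270.07. It ranked 292 from the top of 19398 protein-coding genes in MDA-MB-231 and 336 in LM2-4175. The bounds of the cell lines overlapped, with a ratio of LM2-4175 to MDA-MB-231 of 0.783 that the bounds allow to lie anywhere from 0.491 to 1.25. On the scale of log2(FPKM + 1) the difference was -0.35, and 23.2% of the 13911 genes compared had a difference further below it. The gene lies on chromosome 5 (GRCh37 149781200 to 149792532, minus strand), and none of its exon bases in GENCODE 44 are shared with another gene. Its upper bound stood 22.9% above the FPKM in each cell line, against a median of 38.6% and 38.1% for the genes compared in MDA-MB-231 and LM2-4175.

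CIITA, the coactivator that sets whether class II genes are transcribed, was measured far lower. MDA-MB-231 had 3.51 FPKM, with bounds of 0.568 and 6.44, and LM2-4175 had 5.60, with bounds of 1.54 and 9.67. These bounds overlapped widely, so that the ratio of 1.60 could lie anywhere from 0.239 to 17.0. The log2 difference of 0.55 was below the log2 limit of 0.58 that stands for 1.5-fold, although the ratio of the unshifted FPKM was above 1.5, because adding 1 FPKM understates the change of low genes. The level of CD74 was 80.1 times that of CIITA in MDA-MB-231 and 39.2 times in LM2-4175, and in each line the lower bound of CD74 stood above the upper bound of CIITA. CIITA lies on chromosome 16 (GRCh37 10960079 to 11036878, plus strand), and 21.6% of its exon bases in GENCODE 44 are shared with DEXI and 2 other annotated genes. The FPKM were quantified on GENCODE 19, for which the overlap was not measured. Strand use in counting is not given either, so the level of CIITA is uncertain.

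The 8 class II genes lie on chromosome 6. HLA-DRA, the alpha chain of HLA-DR, HLA-DPA1 and HLA-DPB1, the chains of HLA-DP, and HLA-DMA were listed at 0 with bounds of 0 in both lines. The beta chain HLA-DRB1 stood at 0.0120 FPKM in MDA-MB-231, with an upper bound of 0.0480, and was listed at 0 in LM2-4175. The alpha chain HLA-DQA1 was at 0.0233 in MDA-MB-231, with an upper bound of 0.159, and HLA-DMB at 0.00784, with an upper bound of 0.113, and both were listed at 0 in LM2-4175. Only HLA-DQB1, the partner of HLA-DQA1, had a value above 0 in both lines. MDA-MB-231 had 0.0600, with an upper bound of 0.248, and LM2-4175 had 0.0988, with an upper bound of 0.307. Every value above 0 among the 8 genes had a lower bound of 0, so the order of these genes cannot be read, and no fold is given for them. The other 12 class II loci, pseudogenes and an antisense RNA included, showed the same picture, with 11 listed at 0 in both lines and HLA-DRB5 at 0.00879 in LM2-4175.

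**Figure D1:**
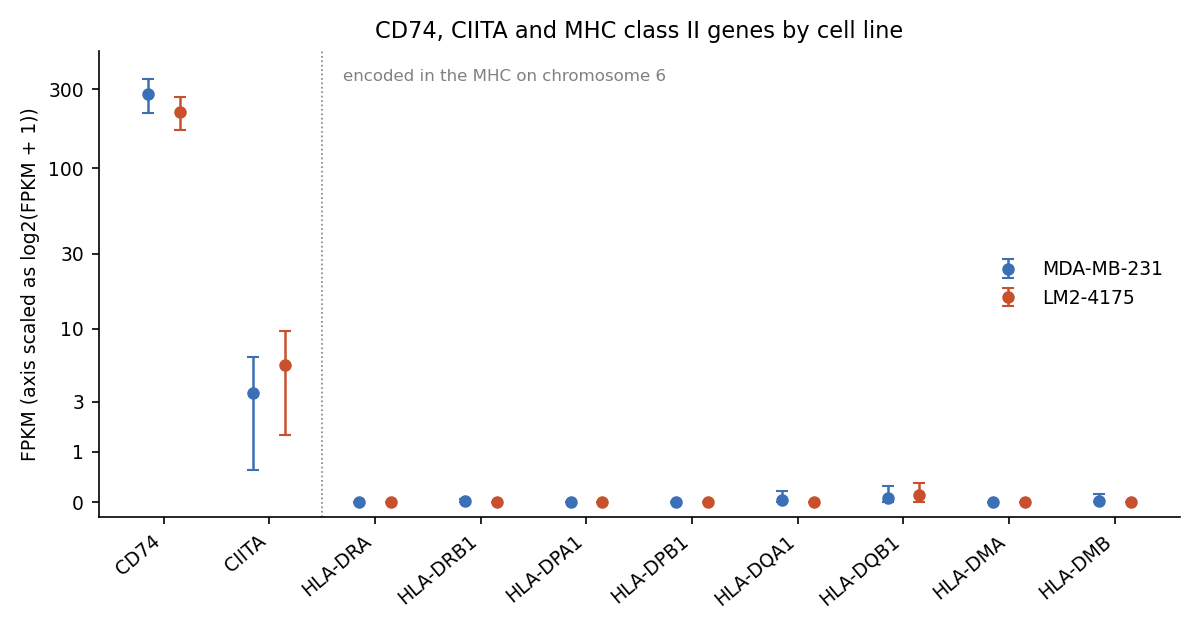
FPKM of the 10 genes in MDA-MB-231 (blue) and LM2-4175 (red), on an axis scaled as log2(FPKM + 1), where points are the value of the pooled libraries and bars the authors' lower and upper bounds. CD74 stands at 281 and 220, CIITA at 3.51 and 5.60, and the 8 class II genes of chromosome 6 lie at or near 0.

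A gene was compared where its status was OK and its mean FPKM over the cell lines was at least 0.5, and was called higher or lower where the lines differed by 1.5-fold or more with bounds clear of each other. This call compares the pooled libraries and not replicated conditions. The gene groups below were chosen with earlier results of these data known, so the shares called in them are a description. Of the 10 genes, CD74 and CIITA were compared and 0 were called, while 9.27% of all genes compared were called, 649 higher and 641 lower in LM2-4175. The other 8 genes had too low a mean to be compared, so no change in them was detectable.

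The stretch of chromosome 6 around the class II genes was listed at or near 0 almost throughout. Between the starts of BTNL2 and KIFC1 (GRCh37 32361116 to 33359600), only 1 of 36 protein-coding genes had a mean FPKM of at least 0.5, and 25 were listed at 0 in both lines. That gene was BRD2, a chromatin reader, at 1.54 FPKM in the parental line and 1.21 in LM2-4175, with overlapping bounds. From HLA-F to KIFC1 (29690552 to 33359600) the count was 5 of 150, or 3.33%, with 115 listed at 0 in both lines. In the 5 Mb on either side it was 84 of 156, or 53.8%, and on the rest of chromosome 6 it was 522 of 838, or 62.3%. All protein-coding genes outside the stretch, on chromosome 6 and elsewhere, gave 62.7%.

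The genes at 0 in this stretch included some that most cells need. RPS18, a protein of the small ribosomal subunit, the tubulin gene TUBB, the chaperone genes HSPA1A and BAG6, the kinase subunit CSNK2B, FLOT1 and the valyl-tRNA synthetase VARS were all listed at 0 with bounds of 0 in both lines. These genes were picked after their values were seen. Of 86 ribosomal protein genes found by symbol, 82 had a mean FPKM of at least 0.5, with a median of 984 over all 86, and RPS18 was among the 4 below. The run of low values reached past the MHC genes. Between ZSCAN12 (start 28346732, 3.24 and 2.33 FPKM) and BAK1 (start 33540324, 31.9 and 17.8 FPKM) lay 5.19 Mb in which 174 of 179 protein-coding genes had a mean below 0.5. Absent class II transcripts and a listing at 0 that covers the whole stretch therefore cannot be told apart in these data, and the cause of the listing was not tested. CD74 on chromosome 5 and CIITA on chromosome 16 lie outside it.

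**Figure D2:**
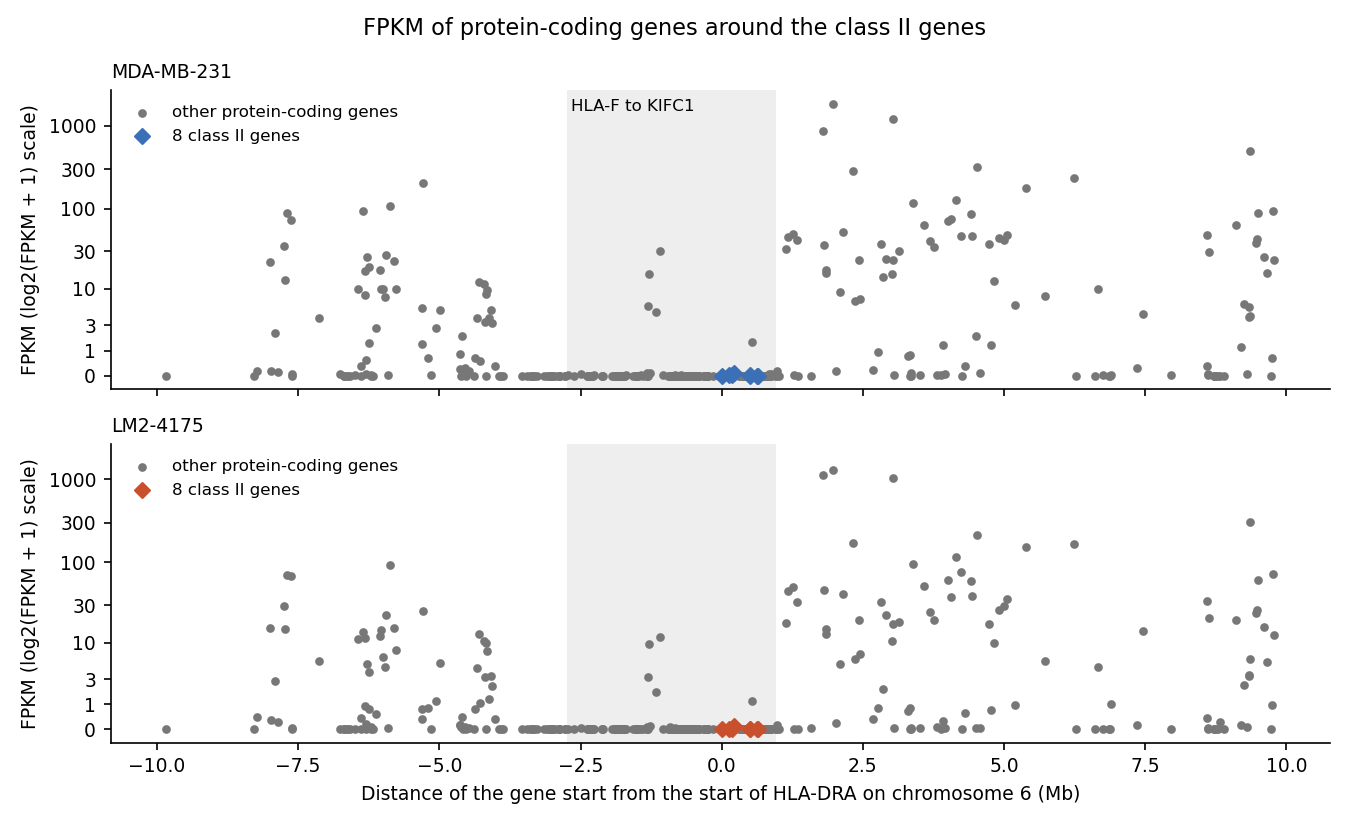
FPKM of protein-coding genes within 10 Mb of HLA-DRA in MDA-MB-231 (top) and LM2-4175 (bottom), against the distance of each gene start from that of HLA-DRA in Mb, with the 8 class II genes as diamonds and the stretch from HLA-F to KIFC1 shaded. The shaded stretch holds 5 genes with a mean of at least 0.5, in a run of values near 0 that breaks off on both sides.

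HLA-B and HLA-C, heavy chains of the class I molecules that present peptides to CD8+ T cells, were 2 of the 5 genes with signal, and both were called lower in LM2-4175. HLA-B had 30.5 FPKM in MDA-MB-231 (bounds 22.4 and 38.6) and 11.9 in LM2-4175 (bounds 8.35 and 15.4), a log2 difference of -1.29. HLA-C had 4.81 FPKM (bounds 2.996 and 6.63) and 1.79 (bounds 0.953 and 2.62), a log2 difference of -1.06. These heavy chains are close copies of each other, so reads may have been split between them and their values are uncertain. TCF19 (15.6 and 9.67 FPKM) and CCHCR1 (5.91 and 3.22) made up the rest, and their bounds overlapped.

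Promoters of CD74 and the class II genes were searched for the boxes named above. RefSeq promoters (GRCh38.p14, 250 bases before to 50 after the start of transcription) were matched for 8 of the 10 genes, CIITA and HLA-DRA having no entry here. The stretches below run from base -120 to base -11 relative to the start, 110 bases each, written 5′ to 3′ on the gene's strand. Capitals mark matches to the X box, searched as CCNNGNAAC, or to the Y box, searched as ATTGG, on either strand.
CD74, chr5:150412921-150413030, minus strand: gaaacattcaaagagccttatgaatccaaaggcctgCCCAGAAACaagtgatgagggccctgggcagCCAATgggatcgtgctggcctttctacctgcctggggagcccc
HLA-DMB, chr6:32941039-32941148, minus strand: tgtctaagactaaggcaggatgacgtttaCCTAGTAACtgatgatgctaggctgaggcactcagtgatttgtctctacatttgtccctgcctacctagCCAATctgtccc
HLA-DMA, chr6:32953108-32953217, minus strand: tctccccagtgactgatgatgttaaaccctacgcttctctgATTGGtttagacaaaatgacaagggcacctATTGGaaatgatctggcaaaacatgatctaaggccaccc
HLA-DQB1, chr6:32666668-32666777, minus strand: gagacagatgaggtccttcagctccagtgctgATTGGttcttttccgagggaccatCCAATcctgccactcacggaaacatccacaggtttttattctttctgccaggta
HLA-DRB1, chr6:32589859-32589968, minus strand: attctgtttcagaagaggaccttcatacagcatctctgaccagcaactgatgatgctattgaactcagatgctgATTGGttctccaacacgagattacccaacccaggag

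CD74 and HLA-DMB held an X box match followed by a Y box match in the reverse sense (CCAAT), the X box starting at base -84 in CD74 and -91 in HLA-DMB and the Y box at -53 and -22. HLA-DMA, HLA-DQB1 and HLA-DRB1 held Y box matches with no X box match to these letters. The search allowed no departure from the fixed letters, so a missing match does not show that a box is absent. Of the 8 genes with a promoter, 3 held an X box match, the other being HLA-DPA1, and 7 held a Y box match. Among all 35116 promoters of this length, 15.5% held an X box match, 34.6% a Y box match and 5.32% both. The interferon motif GAS (TTCNNNGAA) was matched in HLA-DQA1 alone, against 7.66% of all promoters, and the interferon response element ISRE in 0 of the 8, against 3.57%. A match is only a match of letters and says nothing of binding.

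The genes of the factors that bind these boxes were expressed in both lines. All 7 genes of the RFX complex, the NF-Y complex and CREB1 were compared, 0 were called, and the ratios of LM2-4175 to MDA-MB-231 ran from 0.704 to 1.25. RFXANK, which bridges the RFX complex, had 45.1 FPKM in MDA-MB-231 and 46.3 in LM2-4175. RFX5, the DNA-binding subunit whose loss abolishes class II expression, had 35.7 and 44.6, with a log2 difference of 0.31 and overlapping bounds. NFYC, a subunit of NF-Y, had 31.1 and 30.9. The median log2 difference of the 7 genes was 0.02, beside -0.04 over all genes compared, of which 9.27% were called.

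The route by which interferon-gamma reaches CIITA was also expressed, apart from the cytokine. IFNG was listed at 0 in both lines, 11 of the 12 genes were compared, and 1 was called, a share close to the 9.27% of all genes. IFNGR2, the signalling chain of the receptor, was lower in LM2-4175, with 54.1 FPKM in MDA-MB-231 (bounds 38.1 and 70.0) and 25.8 in LM2-4175 (bounds 17.8 and 33.7), a log2 difference of -1.04. The bounds of the next genes overlapped. The kinase JAK1 had 43.2 and 34.5, and EZH2, a histone methyltransferase that can silence CIITA, had 41.9 and 32.4. The log2 difference was below 0 in 9 of the 11 genes, or in 8 after either scaling to equal totals or upper quartiles. The median was -0.21 as deposited. The group also holds genes that can act against the route, such as EZH2, so the count and median give no direction for it.

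Among genes that interferons induce, 6 of 12 compared were called lower in LM2-4175 and 0 higher, beside 9.27% of all genes called either way. This list too was chosen with earlier results known, so the 2 shares are not a test. Their median log2 difference was -0.98, beside -0.04 over all genes. IFI27 went from 101 FPKM in MDA-MB-231 to 1.65 in LM2-4175, a log2 difference of -5.27. The antiviral genes IFIT1 (63.0 and 5.34), IFIT3 (84.9 and 15.5) and MX1 (8.51 and 2.44) and the ubiquitin-like modifier ISG15 (116 and 32.6) were called lower as well. GBP1, an interferon-gamma-induced GTPase, was called lower, with 20.0 and 9.60. The bounds overlapped for WARS, a tRNA synthetase induced by interferon-gamma (80.4 and 89.4), GBP2 (17.8 and 15.6) and IFI6 (6.23 and 5.64). CIITA and CD74 are also interferon-gamma targets, and neither was called. The list is not limited to interferon-gamma targets, so no contrast between it and these 2 genes is drawn.

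**Figure D3:**
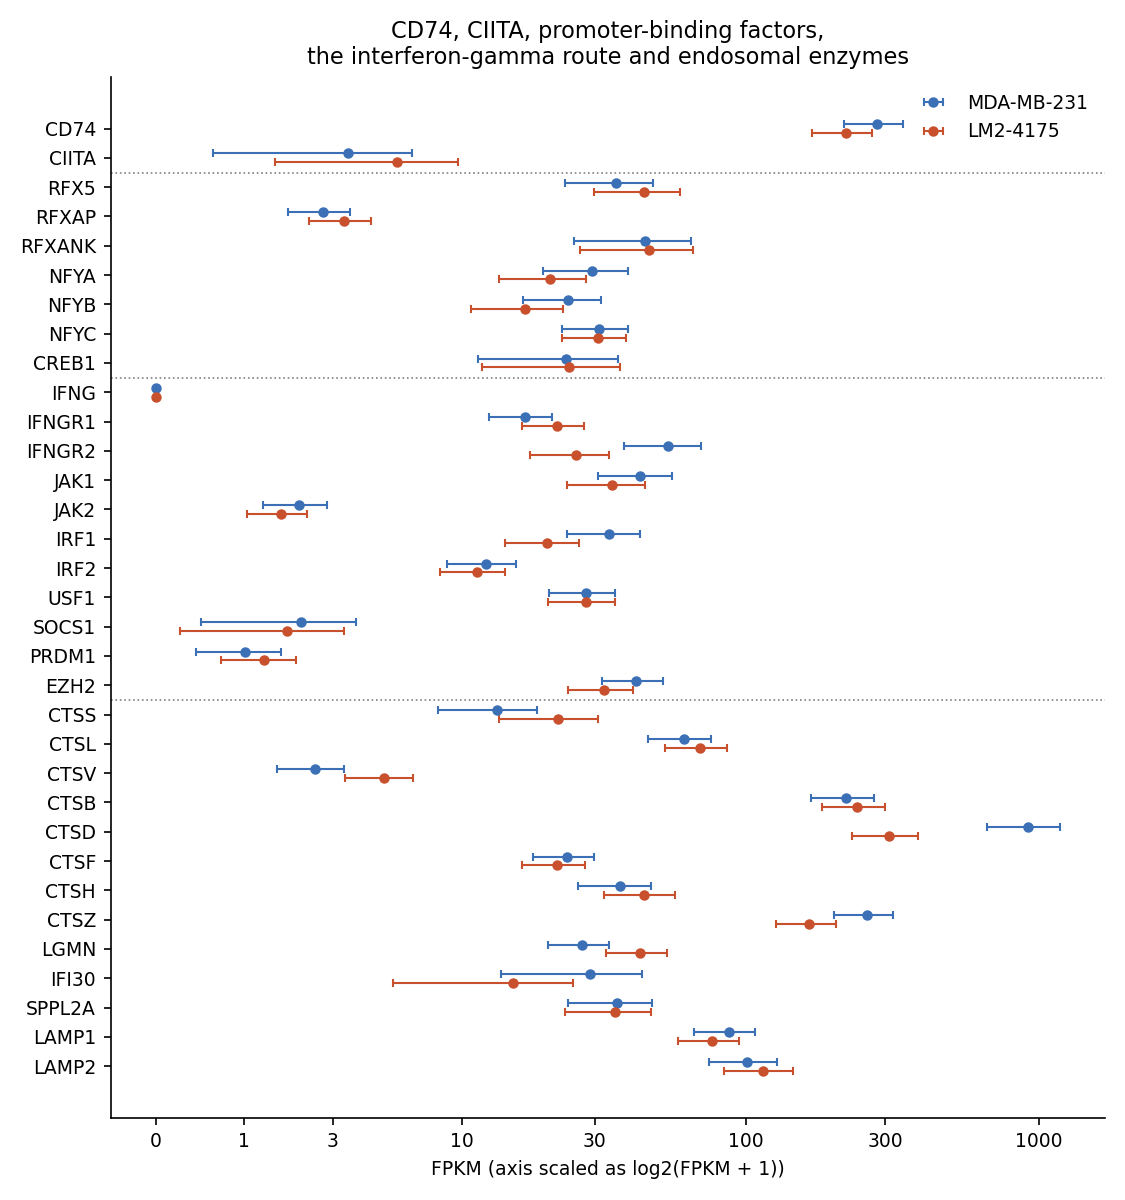
FPKM of CD74, CIITA, the promoter-binding factors, 11 genes of the interferon-gamma route and the endosomal genes in MDA-MB-231 (blue) and LM2-4175 (red), on an axis scaled as log2(FPKM + 1), with the authors' bounds as bars and dotted lines between the groups. IFNGR2, CTSV and CTSD are the genes called, and IFNG is listed at 0.

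The endosomal machinery that processes CD74 and antigen was expressed throughout, with 13 of 13 genes compared. Of these, 1 was called higher and 1 lower, beside 9.27% of all genes called. CTSD, the aspartic protease cathepsin D, was lower in LM2-4175, with 920.5 FPKM in MDA-MB-231 (bounds 665 and 1176) and 309 in LM2-4175 (bounds 231 and 387), a log2 difference of -1.57. CTSV, a cathepsin that cleaves the invariant chain in thymic epithelium, was higher, with 2.48 (bounds 1.59 and 3.37) and 4.95 (bounds 3.41 and 6.49), a log2 difference of 0.77. The gap between these bounds was narrow, the call was lost at a 2-fold limit, and 2 genes of the group were called higher after either scaling. CTSB had 221 and 240.5, CTSZ 260 and 165, and the lysosomal membrane protein LAMP2 101 and 115, each with overlapping bounds. The median log2 difference of the 13 genes was 0.12.

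Genes for the ubiquitination and endocytosis that remove CD74 and class II molecules from the surface gave 0 calls among 7 compared. The share called over all genes was 9.27%. The endocytic adaptor subunits AP2M1 (267 and 168 FPKM) and AP2B1 (151 and 114) and the clathrin heavy chain CLTC (135 and 130.5) had overlapping bounds. MARCH1, the ubiquitin ligase of class II molecules, named after its values were seen, had 0.412 and 1.41 with overlapping bounds. The median of -0.05 turned to 0.03 and 0.05 when FPKM were scaled to equal totals and to equal upper quartiles, so no direction is given for the group.

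CD74 acts as a receptor with partners. Of the 5 compared, 2 were called lower in LM2-4175 and 0 higher, beside 9.27% of all genes called either way. Both had under 0.5 FPKM in LM2-4175 and passed the filter on the mean through MDA-MB-231, and the count was 1 at a mean FPKM of at least 1 and 0 at a mean of at least 5. CXCR4, a chemokine receptor that joins CD74 in responding to MIF, had 9.56 FPKM in MDA-MB-231 (bounds 6.96 and 12.2) and 0.254 in LM2-4175 (bounds 0.0892 and 0.419), a log2 difference of -3.07, or -5.23 without the added 1 FPKM. ACKR3, an atypical chemokine receptor that also binds MIF, had 1.14 (bounds 0.448 and 1.82) and 0.0139 (bounds 0 and 0.0760). Its log2 difference of -1.08 rests on the added 1 FPKM and was -3.44 with 0.1 FPKM added. The bounds overlapped for the signalling partner CD44 (470 and 355), the ligand MIF (88.1 and 86.2) and its relative DDT (19.3 and 12.1). The ligand and CD44 were thus measured well above 0 in both lines, beside CD74.

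Class I presentation gave 2 calls among 11 compared, HLA-B and HLA-C, both lower, beside 9.27% of all genes called. All 9 genes of the list outside the stretch from HLA-F to KIFC1 were compared, and 0 of them were called. The light chain B2M had 1922 and 1704 FPKM, and the chaperones CALR and CANX had 847 and 616 and 509.6 and 538. Within the stretch, TAP1, PSMB8 and PSMB9, named after their values were seen, were listed at 0 in both lines.

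Co-stimulation and adhesion genes, whose products a T cell reads beside the peptide, were called in both directions. Of 8 compared, 2 were called higher and 1 lower, beside 9.27% of all genes called. ICAM1, the ligand of LFA-1, had 30.8 FPKM in MDA-MB-231 (bounds 13.6 and 48.1) and 91.5 in LM2-4175 (bounds 66.9 and 116), a log2 difference of 1.54. TNFSF4, the OX40 ligand, had 0.413 (bounds 0.210 and 0.617) and 1.13 (bounds 0.682 and 1.59), a log2 difference of 0.59 against the limit of 0.58. It passed the filter on the mean through LM2-4175 and was no longer called at a mean of at least 1 or a 2-fold limit, which left 1 gene called higher. CD40, the receptor for the T cell ligand CD40L, was lower, with 26.2 (bounds 19.2 and 33.2) and 8.39 (bounds 5.76 and 11.0), a log2 difference of -1.53. CD58 (41.0 and 37.7), CD274, which encodes PD-L1 (8.27 and 10.3), and TNFSF9 (4.71 and 8.51) had overlapping bounds. Those of TNFSF9 overlapped narrowly (6.16 above MDA-MB-231 and 6.14 below LM2-4175), and 3 genes were called higher when the lines were scaled to equal totals or upper quartiles. The co-stimulatory ligand CD80 was listed at 0 in both lines.

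**Figure D4:**
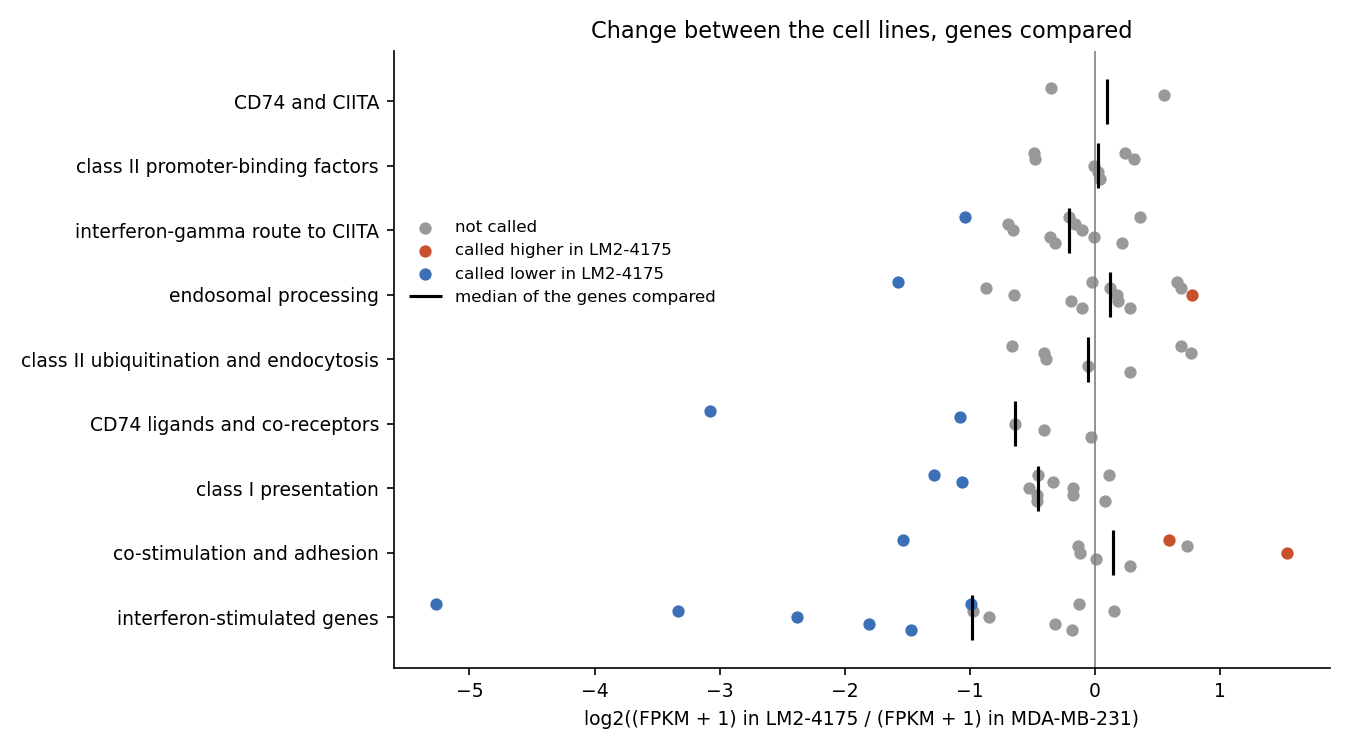
Log2 difference of FPKM + 1, LM2-4175 over MDA-MB-231, for the genes compared in 9 groups, where each point is a gene, red or blue if called higher or lower, and black bars are group medians. Calls are 0 of 2 for CD74 and CIITA, 0 of 7 for the promoter-binding factors and 6 of 12, all lower, for interferon-stimulated genes. Over all genes compared, 9.27% were called.

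Markers of white blood cells, which express class II genes and CD74 by themselves, were low. Of 22 markers, 17 were under 0.5 FPKM in both lines, and CD3E, CD1C, CLEC9A and FCER1A were among those listed at 0 in both. PTPRC, the pan-leukocyte marker CD45, had 0.0767 FPKM in MDA-MB-231 and 0.0263 in LM2-4175. The sum over all 22 was 146 for MDA-MB-231 and 295 for LM2-4175, of which 6.85 and 5.73 came from the 20 markers other than CD68 and LAPTM5. LAPTM5, a lysosomal membrane protein, was called higher, with 32.1 and 110 FPKM, and the macrosialin gene CD68 had 107 and 179 with overlapping bounds. CORO1A (1.58 and 2.22) and CSF1R (2.92 and 0.790) were low, also with overlapping bounds. The part of such cells in the CD74 values was not tested.

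The labelled cell type was checked against its markers. ESR1 and PGR, the oestrogen and progesterone receptors, had at most 0.0331 FPKM in either line. ERBB2 had 35.0 and 22.8, EGFR 41.4 and 54.3 and the mesenchymal gene VIM 1355 and 1768, all 3 with overlapping bounds. ERBB2 had been listed with ESR1 and PGR as low or absent in a triple-negative line, and its RNA was not. The epithelial keratins KRT8 (626 and 180.2 FPKM), KRT18 (448 and 181) and KRT19 (250.3 and 36.3) were called lower in LM2-4175.

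The 5 protein-coding genes whose log2 difference was nearest to that of CD74 were POLE3, RNF220, NR2F6, GRIK4 and MRPL39, each at -0.35. Likeness rests on 1 difference between 2 cell lines and describes no shared pattern. HLA-DRA was not compared, so no such genes are given for it.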

How the data were processed

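The authors sequenced total RNA of the cell lines with TruSeq libraries, aligned the reads to hg19 with TopHat2 and quantified GENCODE 19 genes with Cufflinks, and the submitters' notes also name Cuffdiff. The authors deposited, per gene and cell line, an FPKM, its bounds below and above, and a status, the libraries of a line being pooled. All value columns were mapped. The study's supplement states aligned read pairs for each library, but the table does not hold the reads counted on a gene, so the precision of a value was read from the bounds. Library size normalization and strand use are not given in the sources used here. The deposited FPKM summed to 632944 in MDA-MB-231 and 598147 in LM2-4175, 31175 of 57815 genes were listed at 0 in both, and 8 had a status other than OK.

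Log2 ratios of FPKM with a pseudocount of 1 were calculated in Python 3.11.15 with NumPy 2.4.6 and pandas 2.3.3, and drawn with Matplotlib 3.10.9. Genes were compared if their status was OK and their mean FPKM 0.5 or more, 13911 in all. A gene was called at a change of at least 1.5-fold with bounds that did not overlap. The script for this rule was checked on simulated data, which says nothing of the bounds themselves. Positions came from GENCODE 44 on GRCh37, matched by identifier for 55535 genes, with 2280 unmatched. The 12 gene lists, of which the 10 genes are 1, were chosen with earlier results of these data known. The text names all 10 genes, all called genes of each list with up to 3 others of the highest mean FPKM, the compared genes of the class II region, the 5 genes nearest to CD74, and genes said to be picked after their values were seen. Alternatives were other pseudocounts, scalings, filters and call rules. Some genes that this rule names are not reported here.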

Additional observations from a re-analysis of the deposited data

How the results depend on the processing

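Under every alternative that gave a value, 0 of the 10 genes and 0 genes of the class II region were called. This says nothing of stability for the 8 class II genes, which lay under 0.1 FPKM with lower bounds of 0 and could be called under none of them, and in the region only BRD2 was compared. The log2 difference of CD74 lay between -0.35 and -0.25 and that of CIITA between 0.55 and 0.68. Of all genes compared, 649 were called higher and 641 lower. Scaling to equal totals gave 735 higher and 547 lower, and to equal upper quartiles 753 and 525. A mean FPKM of at least 5 left 321 higher and 443 lower, a 2-fold limit left 450 and 403, and the 1.5-fold limit without the bounds gave 1434 higher and 1640 lower, since fewer or more genes could then pass. In the 9 pathway lists together, the other class II loci included, 3 genes were called higher and 13 lower. Scaling to equal totals gave 5 higher, as did scaling to equal upper quartiles, a mean of at least 5 or a 2-fold limit left 1, and the fold alone gave 8 higher and 21 lower. Scaling to equal totals moved log2 differences of abundant genes by 0.08 and to upper quartiles by 0.10. Leaving out the genes from HLA-F to KIFC1, an alternative chosen after seeing the data, removed both class I calls. HLA-B and HLA-C lie in that stretch, so this had to follow and says nothing of their stability. Of the other values, counts of single groups and log2 differences of named genes, 302 stayed within 1.5 times the count or kept the gene's call, and 18 counts moved by over 1.5 times. Many of the 302 were counts of 0 that stayed at 0, as in the other class II loci, where no gene was compared. Leaving out the stretch could not change groups with no gene in it. The 302 are therefore no measure of stability. The width of the bounds limits what CIITA can show. No paired analysis was possible because the libraries of each cell line were pooled in 1 column, and for the same reason no replicate could be left out.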
